A study of Mus musculus with 383 samples.

Results

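Antigen presentation by the major histocompatibility complex (MHC) was followed through 10 genes in 4 brain regions of F2 mice. The genes were chosen by name and found through the array annotation, 6 of the class I pathway (H2-K1, H2-D1, B2m, Tap1, Psmb8 and Psmb9) and 4 of the class II pathway (H2-Aa, H2-Ab1, H2-Eb1 and Cd74). They had 31 of the 45037 probe sets of the array, and 10 of 18193 genes measured by a probe set of a single gene. Another 3 probe sets that name a member together with other genes were left out. Each gene is described by 1 probe set, the brightest on average in cortex and thalamus, and the other 21 are given where they bear on a result.

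The animals were 117 adult males of the second generation of a cross of C57BL/6J and 129S1/SvImJ mice of mixed genotype. All groups share the same history: behavioural tests from 7 weeks of age, electrodes placed at 10 weeks, 6 h of sleep deprivation, 1 h of restraint, and tissue collection at 16 weeks. Total RNA was hybridised to Affymetrix arrays, with 1 array for each mouse and region: cortex had 98, hippocampus 83, hypothalamus 94 and thalamus 108. Tissue was taken 6 to 7 h after lights on (ZT6 to ZT7), so that all values describe 1 time of day. In bulk tissue, fewer cells of a type and less RNA per cell cannot be told apart.

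Class I molecules stand on nearly all nucleated cells and show peptides from inside the cell to CD8+ T cells. Their heavy chains (H2-K1 and H2-D1) pair with beta-2 microglobulin (B2m), the peptides are cut by the immunoproteasome (Psmb8 and Psmb9 are catalytic subunits) and enter the endoplasmic reticulum through the TAP transporter (Tap1 is one of its chains). Class II molecules are formed by an alpha and a beta chain, such as H2-Aa with H2-Ab1. H2-Eb1 is a further beta chain, and whether it forms a molecule in these mice was not measured. Class II molecules are made by professional antigen-presenting cells, and Cd74, the invariant chain, fills and guides them on their way through the cell. In the healthy brain, class II is known mainly from macrophages at the brain's borders, that is in meninges, perivascular spaces and choroid plexus, and is scarce in microglia.

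The promoters of the members are shown because the classes are known to be controlled through partly shared elements. Some members, above all the class II genes, moved together in the data below, and a link to these elements was not tested. RefSeq's promoter table (build GRCm38.p6) held a window of 300 bases, 250 before the start and 50 after it, for 8 of the 10 genes. The window of H2-K1 lies inside the span that RefSeq gives for this gene (33996012 to 34000619). The start used for it is therefore not the gene's outer end. In each sequence, read 5′ to 3′ on the strand of the gene, capitals mark matches on either strand to 4 motifs: GGGATTCCC (a kappaB-type site), GAAANNGAA (an interferon response motif), CCAAT (the core of the Y box) and CTAGCAAC (a short core of the X box of class II genes). No 2 matches overlapped. The sequences of the class I chains and of 2 class II chains are given here with that of Tap1.
H2-K1, chr17:34000298-34000597, minus strand: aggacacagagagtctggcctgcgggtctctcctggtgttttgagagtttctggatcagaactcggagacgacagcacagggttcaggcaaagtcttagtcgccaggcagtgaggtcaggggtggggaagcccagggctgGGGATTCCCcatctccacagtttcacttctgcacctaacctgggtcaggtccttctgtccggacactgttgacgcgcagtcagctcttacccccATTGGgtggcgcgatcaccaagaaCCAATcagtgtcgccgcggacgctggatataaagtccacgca
H2-D1, chr17:35262844-35263143, plus strand: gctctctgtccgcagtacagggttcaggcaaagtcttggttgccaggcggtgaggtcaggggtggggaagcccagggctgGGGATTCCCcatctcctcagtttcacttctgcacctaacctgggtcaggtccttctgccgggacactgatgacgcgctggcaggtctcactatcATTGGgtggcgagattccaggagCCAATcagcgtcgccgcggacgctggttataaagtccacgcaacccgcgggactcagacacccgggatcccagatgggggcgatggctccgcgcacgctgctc
B2m, chr2:122147437-122147736, plus strand: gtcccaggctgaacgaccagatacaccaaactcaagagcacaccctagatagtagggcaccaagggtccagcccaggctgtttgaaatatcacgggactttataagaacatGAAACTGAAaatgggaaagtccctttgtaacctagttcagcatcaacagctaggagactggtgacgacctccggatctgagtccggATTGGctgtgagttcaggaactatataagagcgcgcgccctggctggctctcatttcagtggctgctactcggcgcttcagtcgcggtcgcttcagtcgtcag
Tap1, chr17:34187306-34187605, plus strand: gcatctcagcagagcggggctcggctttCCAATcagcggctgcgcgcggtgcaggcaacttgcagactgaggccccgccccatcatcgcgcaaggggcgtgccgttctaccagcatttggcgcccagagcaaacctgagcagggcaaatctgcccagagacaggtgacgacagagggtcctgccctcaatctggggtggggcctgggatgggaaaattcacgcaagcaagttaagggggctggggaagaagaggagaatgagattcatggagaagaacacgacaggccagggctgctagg
H2-Aa, chr17:34287774-34288073, minus strand: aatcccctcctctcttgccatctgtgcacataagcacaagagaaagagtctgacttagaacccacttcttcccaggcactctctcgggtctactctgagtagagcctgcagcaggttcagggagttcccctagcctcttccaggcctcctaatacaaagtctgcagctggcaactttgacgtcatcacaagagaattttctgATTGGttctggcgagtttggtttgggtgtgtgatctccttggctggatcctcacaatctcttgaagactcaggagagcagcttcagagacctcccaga
H2-Eb1, chr17:34305617-34305916, plus strand: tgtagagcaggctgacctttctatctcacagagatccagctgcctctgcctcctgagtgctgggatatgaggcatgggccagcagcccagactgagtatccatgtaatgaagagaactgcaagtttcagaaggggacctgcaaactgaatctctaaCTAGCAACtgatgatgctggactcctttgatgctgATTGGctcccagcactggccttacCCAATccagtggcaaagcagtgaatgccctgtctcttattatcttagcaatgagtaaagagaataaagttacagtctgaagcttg

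The kappaB-type motif stood in the windows of H2-K1 and H2-D1 and in 0.353% of all 32851 windows of the table. The longest run of bases that these 2 windows shared was 47. The interferon motif, in the spelling searched, stood in the window of B2m and in 8.56% of all windows. The X box core was found in the window of H2-Eb1 and in 1.32% of all windows, and CCAAT in 7 of the 8 members' windows and in 37.4% of all. The windows of Tap1 and Psmb9, which lie head to head, shared 275 bases. A match is a description of these letters and shows no binding. Each motif was searched in a fixed spelling. A window without a match, those of H2-K1 and H2-D1 for the interferon motif included, may therefore hold a variant of the element.

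Some properties of the whole series touch every value that follows. The deposited log2 means lay between 0 and 16 for all probe sets in cortex and thalamus, whereas 769 in hippocampus and 335 in hypothalamus lay outside it. Levels are therefore compared between cortex and thalamus only, and the size of the spread may not be on the same scale in all 4 regions. The labels of these 2 regions fitted their markers: Tbr1, a cortical transcription factor, had log2 levels of 8.55 to 9.54 in cortex and 3.13 to 5.20 in thalamus, and Tcf7l2, a thalamic one, 5.59 to 7.28 in cortex and 10.54 to 11.54 in thalamus. Arrays fell on 3 hybridization dates in each region, with 78 of 98, 68 of 83, 75 of 94 and 86 of 108 arrays on the main date of cortex, hippocampus, hypothalamus and thalamus. The date explained at most 3.27% of the variance of any member in any region, where 2.44% is the share that chance gives in that region.

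Across mice, the class II genes varied far more than the class I genes in hippocampus and hypothalamus by the probe sets used. In hippocampus the deposited log2 value of Cd74 ran from 6.46 over a median of 7.78 to 10.39 in 83 mice, and that of H2-Aa from 9.58 over 11.60 to 13.95. In hypothalamus Cd74 ran from 9.65 over 11.23 to 12.69 in 94 mice, and H2-Aa from 8.35 over 10.08 to 11.87. In both regions and for both genes, the highest and the lowest mouse differed by more than 3 log2 units.

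B2m showed the opposite picture. Its log2 value ran from 13.16 over 13.53 to 13.97 in hippocampus (82 mice), and from 10.61 over 10.88 to 11.24 in hypothalamus. Among all probe sets of a region, the SD of the 4 class II genes lay between the 98.3rd and 99.4th percentile in hippocampus and between the 98.2nd and 99.2nd in hypothalamus. That of the 6 class I genes lay between the 28.5th and 57.4th percentile in hippocampus and between the 20.3rd and 54.7th in hypothalamus. The other probe sets were less clearly apart. Those of class I genes ran from the 18.8th (Tap1) to the 95.5th percentile (H2-D1) in hippocampus. In hypothalamus they ran from the 6.68th (B2m) to the 91.6th (H2-D1). Those of class II genes ran from the 48.5th to the 98.5th in hippocampus and from the 47.7th to the 98.6th in hypothalamus, all of H2-Aa.

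In cortex and thalamus the class II genes differed among themselves. H2-Aa and H2-Ab1 had SDs of 0.44 and 0.44 (log2) in cortex and of 0.43 and 0.56 in thalamus, all above the 97th percentile, whereas Cd74 had 0.17 in cortex and 0.23 in thalamus, at the 33.9th and 56.5th percentile. The plot of single mice shows this spread for each gene. By the largest gap between neighbouring mice in the mean of standardised regional values, none of the 10 genes split the 117 mice: the gap reached 0.31 SD for Psmb8, under the limit of 0.45 SD that was set.

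**Figure D1:**
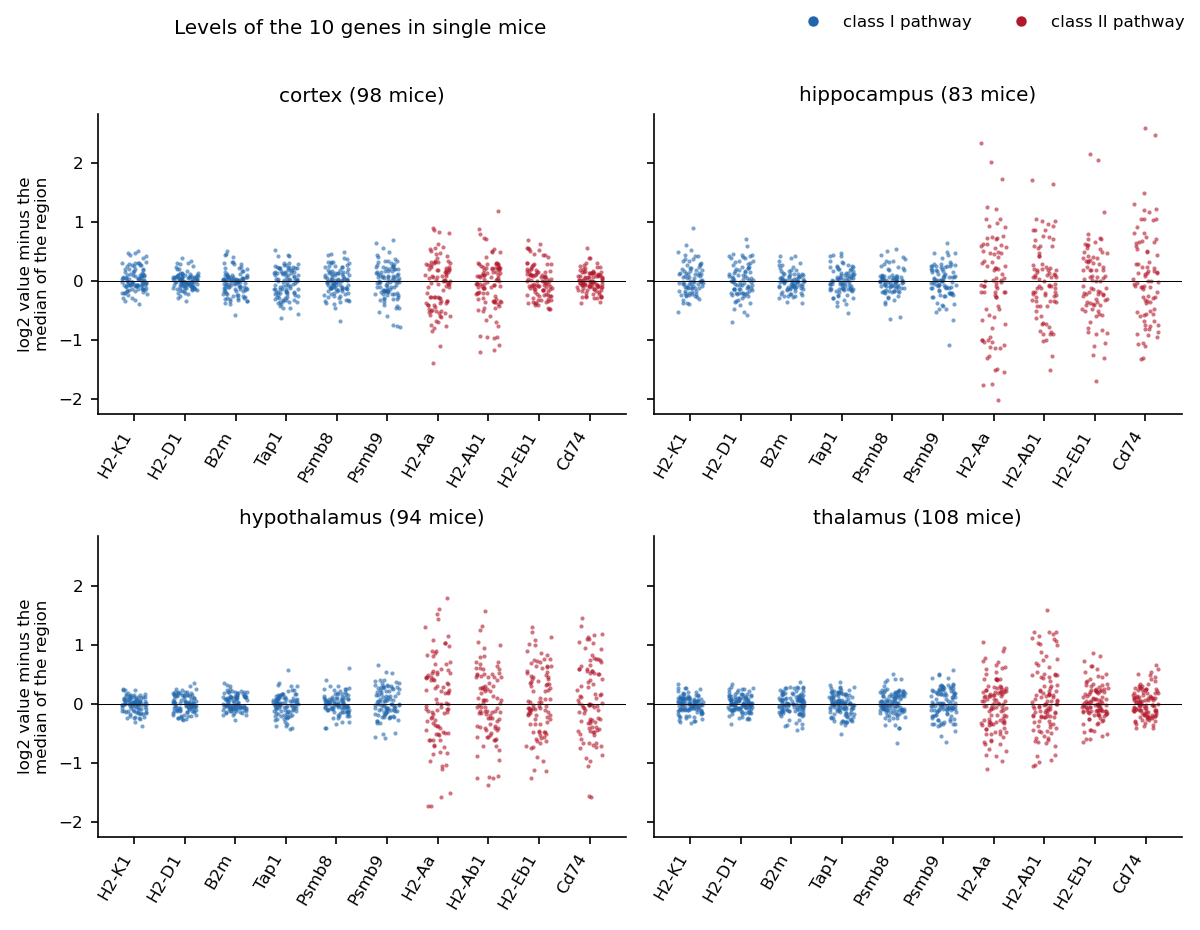
Deposited log2 values of the 10 genes, each as the difference from its median in that region, in single mice (points) of cortex, hippocampus, hypothalamus and thalamus; the class I pathway is in blue and the class II pathway in red. The class II genes spread over 3.21 to 4.37 log2 units in hippocampus and 2.57 to 3.52 in hypothalamus, the class I genes over 0.81 to 1.72 and 0.61 to 1.23, and the vertical scale may differ between regions.

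Cd74 was then set against every probe set of the same region across mice, to see whether the class II genes move as a unit. They did so in all 4 regions: H2-Aa, H2-Ab1 and H2-Eb1 were called with Cd74 in 12 of 12 tests. A call means a positive r whose p, adjusted by the Benjamini-Hochberg method over the 45036 other probe sets, was under 0.05. The share of all probe sets called with Cd74 was 0.0155% for cortex, 1.97% for hippocampus, 1.82% for hypothalamus and 0.222% for thalamus.

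Hypothalamus gave the tightest relation by value: Pearson's r of Cd74 with H2-Aa was 0.938 (rho = 0.941, n = 94, permutation p = 1e-05 for both, adjusted p = 2.39e-39). There H2-Ab1 had r = 0.918 and H2-Eb1 r = 0.933. The values in hippocampus were 0.935 for H2-Aa, 0.932 for H2-Ab1 and 0.916 for H2-Eb1 (n = 83). In thalamus r was 0.820, 0.806 and 0.762, and in cortex 0.648, 0.617 and 0.615, in the same order of genes. The permutation p of 1e-05 is the smallest that 100000 permutations can give, and it was reached in all 12 tests. Without the 2 mice farthest from the median of Cd74, r stayed between 0.556 and 0.929.

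Within the class I pathway, B2m served as the common point, since it pairs with every heavy chain. H2-K1, H2-D1 and Psmb8 were called with B2m in all 4 regions, Psmb9 in hippocampus and hypothalamus, and Tap1 in hypothalamus, 15 of 20 tests together. Several of these calls were lost under other settings: by ranks (Spearman) Tap1, Psmb8 and Psmb9 were not called in hypothalamus and H2-D1 not in cortex. Within the hybridization date with most arrays, H2-K1 alone was called in cortex, and H2-K1 and H2-D1 in hypothalamus. H2-K1 was called in all 4 regions under each setting that was run. The share of all probe sets called with B2m was 1.1% for cortex, 1.72% for hippocampus, 0.386% for hypothalamus and 0.251% for thalamus. H2-K1 had the highest r of these genes in each region, with 0.422 (cortex), 0.731 (hippocampus), 0.609 (hypothalamus) and 0.521 (thalamus). H2-D1 followed with 0.347, 0.697, 0.575 and 0.455 in the same order of regions, except in cortex, where Psmb8 had 0.413.

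Tap1 with B2m gave 0.0912 in cortex and 0.157 in thalamus, where neither value passed the test (adjusted p = 0.721 and 0.706), 0.241 in hippocampus (adjusted p = 0.236), and 0.418 in hypothalamus, where it passed (adjusted p = 0.0177). The difference between regions was not tested for Tap1. Psmb9 gave 0.150 (cortex), 0.557 (hippocampus), 0.433 (hypothalamus) and 0.329 (thalamus), the last with an adjusted p of 0.0886. Tap1 and Psmb9, whose promoter windows overlap, correlated at 0.0152 (cortex), 0.331 (hippocampus), 0.260 (hypothalamus) and 0.191 (thalamus).

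H2-K1 and H2-D1 correlated at 0.735 (cortex), 0.944 (hippocampus), 0.705 (hypothalamus) and 0.773 (thalamus). These values are uncertain as a relation of 2 genes, since the heavy chains are near-identical and both probe sets carry the suffix that marks probes shared with other transcripts. The probe sets of H2-Aa and H2-Ab1 carry such suffixes too. For several members the probe sets of the gene did not move together. The other 3 probe sets of Tap1 correlated with the one used at -0.24 to 0.15 over the 4 regions, and the other 8 of H2-D1 at -0.15 to 0.92. The 2 of B2m correlated at 0.808, 0.836, 0.565 and 0.795 in cortex, hippocampus, hypothalamus and thalamus.

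**Figure D2:**
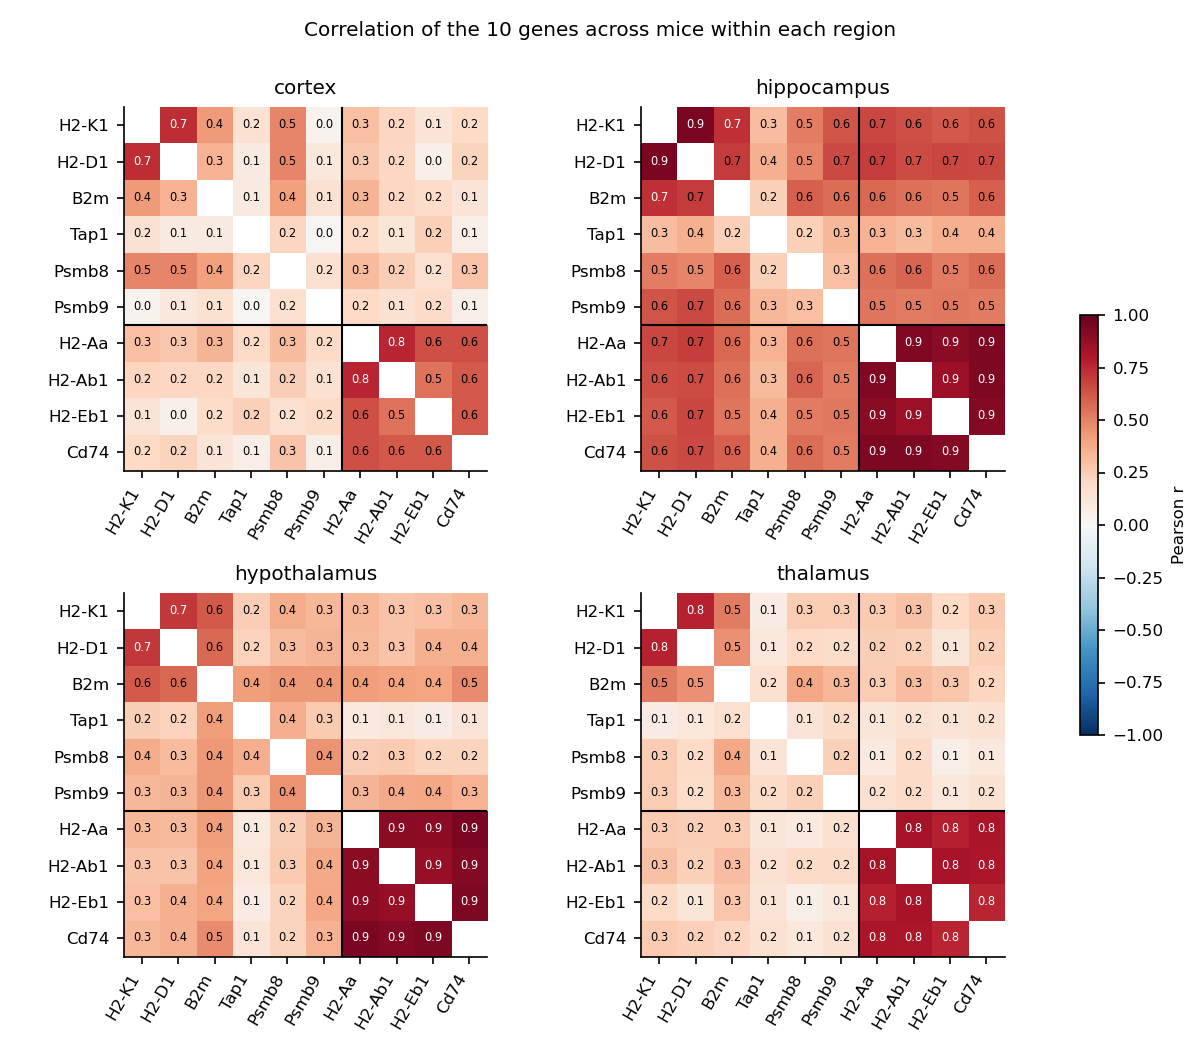
Pearson's r across mice for every pair of the 10 genes in each region, as colour and as a rounded number; black lines divide class I from class II genes. The block of class II pairs has medians of 0.632 (cortex), 0.922 (hippocampus), 0.909 (hypothalamus) and 0.813 (thalamus).

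Between the classes, the calls were most numerous in hippocampus. In hippocampus all 4 class II genes were called with B2m and all 6 class I genes with Cd74. In hypothalamus all 4 class II genes were called with B2m, and H2-D1, B2m and Psmb9 with Cd74. In cortex H2-Aa alone was called with B2m, at r = 0.341 (adjusted p = 0.0471), and r was 0.246 without 2 mice. No class I gene was called with Cd74 in cortex or thalamus, and no class II gene with B2m in thalamus. Over all regions, 9 of 16 tests of a class II gene with B2m were called, against 0 once 5 principal components of each region were taken out. At an unadjusted permutation p under 0.05 stood 2 of the 6 class I genes with Cd74 in cortex and 3 in thalamus. With B2m in thalamus, 4 of 4 class II genes did. The permutation p was computed for members only, so the share of all probe sets at this threshold is not known. The median r over the 24 pairs of a class I with a class II gene was 0.200 (cortex), 0.558 (hippocampus), 0.326 (hypothalamus) and 0.192 (thalamus). Over the 15 pairs within class I it was 0.156 (cortex), 0.511 (hippocampus), 0.372 (hypothalamus) and 0.239 (thalamus). In cortex and hippocampus the value within class I was thus below that between the classes.

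B2m and Cd74 themselves correlated at 0.129 in cortex (rho = 0.0844, n = 98, permutation p = 0.204 and 0.406, adjusted p = 0.579) and at 0.596 in hippocampus (rho = 0.613, n = 82, permutation p = 1e-05 for both, adjusted p = 8.39e-06). In hypothalamus r was 0.476 (rho = 0.473, n = 94, permutation p = 1e-05 for both, adjusted p = 0.00309). In thalamus it was 0.214 (rho = 0.198, n = 107, permutation p = 0.0273 and 0.0406, adjusted p = 0.525). Without the 2 mice farthest from the median of B2m, r was 0.0383, 0.571, 0.463 and 0.254 in the same order of regions. With 5 principal components taken out, r was 0.261 in hippocampus (adjusted p = 0.502) and 0.412 in hypothalamus (adjusted p = 0.0587), neither of them called. The adjusted p is over all probe sets set against B2m; over those set against Cd74 it was 0.397 and 0.0589. With the mean level of meningeal and mural genes taken out, it was 0.493 in hippocampus (adjusted p = 0.00343) and 0.328 in hypothalamus (adjusted p = 0.315).

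The difference between regions was tested over the mice with both regions by swapping the region labels within mice, two-sided, for 6 pairs of regions. Cortex had a lower correlation than hippocampus, 0.193 against 0.637 in 68 mice, with a difference of Fisher's z of -0.56 (permutation p = 0.00074, adjusted over the 6 pairs 0.00444). Cortex was also lower than hypothalamus, 0.0802 against 0.513 in 80 mice, with a difference of -0.49 (permutation p = 0.00157, adjusted 0.00471). The remaining 4 pairs of regions did not pass, with adjusted p from 0.0674 for hypothalamus minus thalamus to 0.443 for hippocampus minus hypothalamus. With the other B2m probe set, an alternative added after the data were seen, cortex against hippocampus passed at an adjusted p of 0.0223 and cortex against hypothalamus had 0.0811. The test covers B2m and Cd74 only. The SD of Cd74 (deposited log2) was 0.17 in cortex, 0.77 in hippocampus and 0.64 in hypothalamus, and its part was not tested. Over all mice of a region, the mean of the standardised class I genes correlated with that of class II. This r was 0.377 in cortex, 0.741 in hippocampus and 0.429 in hypothalamus.

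**Figure D3:**
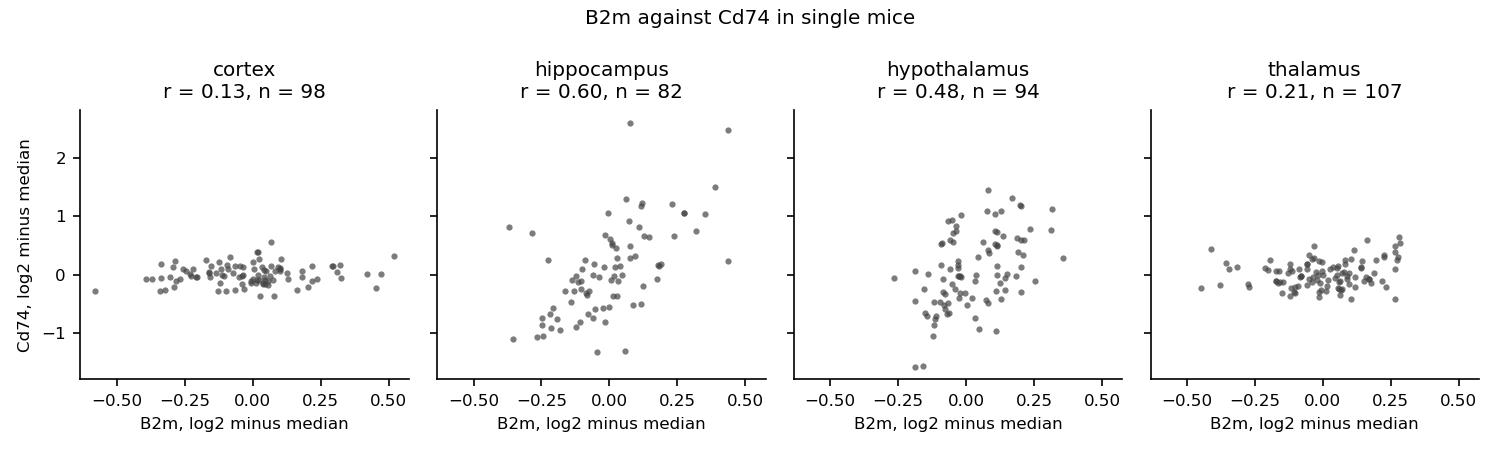
B2m (horizontal) against Cd74 (vertical) in single mice of 4 regions, both as deposited log2 values minus the region's median, with r and the number of mice above each panel. The points form a slope in hippocampus (r = 0.60) and hypothalamus (r = 0.48) and an almost flat cloud in cortex (r = 0.13). The panels share their axes, and Cd74 spans 0.93 log2 units in cortex, 3.92 in hippocampus and 3.03 in hypothalamus. The flat look in cortex is therefore no measure of r.

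Marker genes of other cells moved with the members, and their part in the relations was not tested beyond the values given here. Of 8 genes of meninges and mural cells, 7 were called with Cd74 in hypothalamus, led by Igf2, Col1a2 and Col1a1, against 5 in hippocampus, 4 in thalamus and 0 in cortex. Of 6 genes of perivascular and meningeal macrophages, 5 were called with Cd74 in both hypothalamus and hippocampus and 0 in cortex and thalamus. Of 11 microglia genes, 4 were called with Cd74 in hippocampus and 0 in the other 3 regions. With the mean level of the meningeal and mural genes taken out, r of the class II genes with Cd74 was 0.804 to 0.852 in hypothalamus, 0.872 to 0.885 in hippocampus, 0.687 to 0.763 in thalamus and 0.549 to 0.577 in cortex, and all 12 tests were still called.

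Endothelial genes were called with Cd74 in 4 of 7 cases in hippocampus, 2 in hypothalamus, 1 in thalamus and 0 in cortex. Among choroid plexus genes, 2 of 7 were called with it in hypothalamus (Kcnj13 and Kl) and 0 elsewhere. Genes of B cells, T cells and dendritic cells were called with Cd74 in 2 cases, Cd3e in hippocampus and Cd79a in hypothalamus, and with B2m in 0.

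B2m went with microglia genes in all 4 regions: of 11, cortex had 4 called, hippocampus 5, hypothalamus 2 and thalamus 3. The complement gene C1qc was called with B2m everywhere, at r = 0.50 (cortex), 0.570 (hippocampus), 0.375 (hypothalamus) and 0.430 (thalamus). Meningeal and mural genes were called with B2m in 2, 3, 1 and 0 of 8 cases in the same order of regions, and macrophage genes of the borders in 0, 4, 1 and 0 of 6. With the mean level of the microglia genes taken out, H2-K1 kept r with B2m at 0.372 (cortex), 0.714 (hippocampus), 0.609 (hypothalamus) and 0.455 (thalamus). The count of class I tests called with B2m was then 12 of 20.

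The genes most like each pattern were taken as the 8 with the highest median r over the 4 regions. For Cd74 these were Lyz2 (median r = 0.708), Lyz1 (0.683), Ifitm3 (0.629), Igf2 (0.606), Ifitm2 (0.603), Serping1 (0.598), Cp (0.589) and Bgn (0.584). For B2m they were Lyz2 (0.521), Ifitm3 (0.492), Lyz1 (0.490), C1qa (0.475), C1qc (0.465), C1qb (0.458), Tyrobp (0.446) and Ctsz (0.415). Lyz2 and Lyz1 are lysozymes of myeloid cells, Ifitm2 and Ifitm3 are interferon-induced membrane proteins, and Tyrobp is a signalling adaptor of myeloid cells. Lyz2, Lyz1 and Ifitm3 stood in both lists, and lysozyme transcripts are close enough in sequence that their probe sets may share signal.

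B2m lies on chromosome 2, Cd74 on chromosome 18 and the other 8 genes on chromosome 17. Among the 50 genes with the highest r with B2m, 19 in cortex and 27 in thalamus lay on chromosome 2, which holds 7.73% of all genes measured. In hippocampus and hypothalamus 3 and 5 of 50 did. Gatm, the enzyme of the first step of creatine synthesis, had r = 0.680 with B2m in cortex and 0.482 in thalamus, against 0.130 in hippocampus and 0.192 in hypothalamus, and stood 8 places from it among the 1407 measured genes of that chromosome. Of the chromosome 2 genes in these lists, 15 in cortex and 19 in thalamus lay within 200 places of B2m. The other B2m probe set gave 18 and 29 genes of chromosome 2 among its 50. For the members on chromosome 17, between 0 and 5 of the 50 most alike genes lay on that chromosome, which holds 4.57% of genes, and for Cd74 0 of 50 in each region lay on chromosome 18.

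Agreement between regions asks whether a mouse with a high level in one region also had a high level in another. H2-K1, H2-D1 and B2m did so in every pair by value: r ran from 0.311 to 0.586, and 14 of 18 tests were called. Over all 10 genes and 6 pairs of regions, 25 of 60 tests were called. The share of all 45037 probe sets called for agreement was 5.53% for cortex and hippocampus, 6.62% for cortex and hypothalamus, 8.75% for cortex and thalamus, 8.54% for hippocampus and hypothalamus, 5.69% for hippocampus and thalamus, and 7.9% for hypothalamus and thalamus.

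B2m reached its highest value between cortex and thalamus, r = 0.586 (rho = 0.540, n = 91, permutation p = 1e-05 for both, adjusted p = 4.01e-08), and 0.523 without the 2 mice farthest from the median. H2-K1 in the same pair had r = 0.575 (n = 91, adjusted p = 8.69e-08), and H2-D1 0.511 (n = 90, adjusted p = 7.19e-06). Between hypothalamus and thalamus H2-D1 had 0.526, H2-K1 0.519 and B2m 0.469, all called. The B2m result depended on its probe set: with the other one, r was 0.568 between cortex and thalamus and 0.143 to 0.247 in the other 5 pairs, with 1 of 6 called against 5.

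Tap1, Psmb8 and Psmb9 were called in 0 of 18 tests (the same adjusted correlation test). An unadjusted permutation p under 0.05 was found in 3 of the 18, all of Psmb8. The share of all probe sets at that threshold is not known. The r of Tap1, Psmb8 and Psmb9 ran from -0.067 to 0.296. Psmb8 had its highest value, 0.296, between cortex and hippocampus (adjusted p = 0.161). Tap1 had 0.232 between hippocampus and hypothalamus, and Psmb9 0.194 in the same pair.

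Class II genes were called in 10 of 12 tests among cortex, hippocampus and thalamus, with r from 0.284 to 0.488. This count depended on the setting: it was 2 of 12 within the hybridization date with most arrays, where fewer mice remained and r ran from 0.205 to 0.440, and 5 of 12 by ranks, where it ran from 0.159 to 0.488. In the pairs with hypothalamus 1 of 12 was called, H2-Aa between hippocampus and hypothalamus (r = 0.362, adjusted p = 0.0327). Between hypothalamus and thalamus r was 0.123 for H2-Aa, -0.026 for H2-Ab1, 0.0521 for H2-Eb1 and 0.0394 for Cd74. H2-K1, H2-D1 and B2m were called in 8 of 9 tests with hypothalamus. Whether class I and class II genes differ in this was not tested. Taking out 5 principal components of each region, the class II values in pairs with and without hypothalamus ran from 0.18 to 0.48, with 6 of 12 called in the pairs with hypothalamus and 8 of 12 in those without.

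Within the hybridization date with most arrays, which left 54 to 72 mice per pair, the median r over the 6 pairs was 0.404 for H2-K1, 0.402 for H2-D1 and 0.389 for B2m, against 0.382, 0.415 and 0.383 over all dates. For the class II genes it was 0.328 for H2-Aa, 0.293 for H2-Ab1, 0.242 for H2-Eb1 and 0.266 for Cd74, against 0.363, 0.276, 0.298 and 0.286. The count of calls within that date was 13 of 60.

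**Figure D4:**
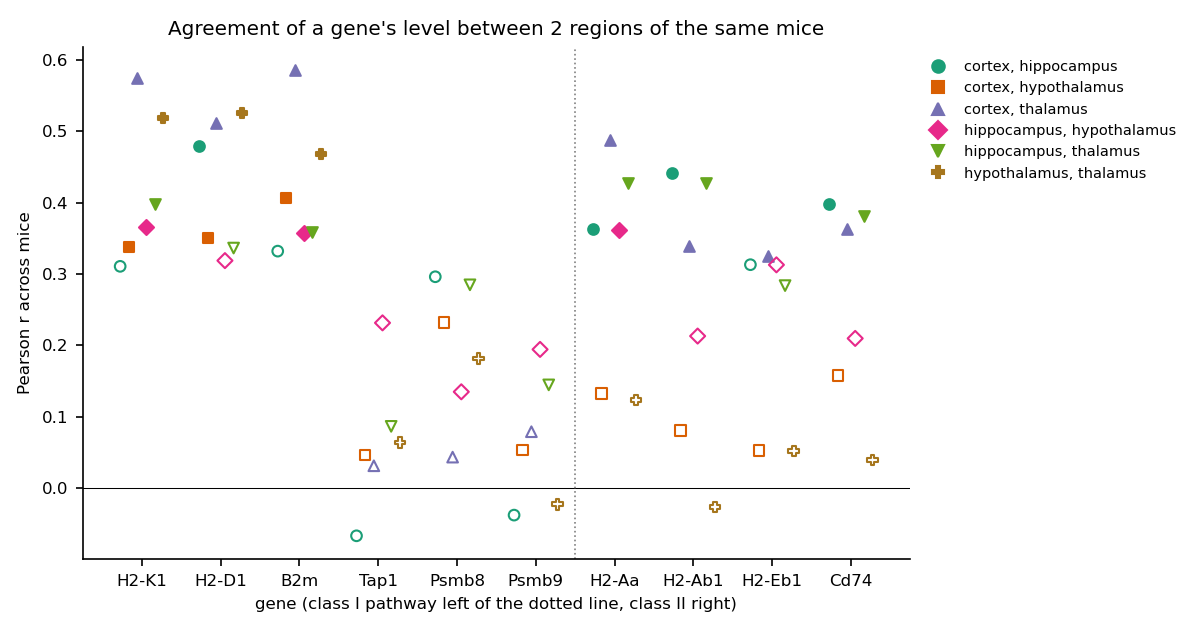
Pearson's r across mice between 2 regions for each gene, 1 symbol per pair of regions, filled where called and open where not. H2-K1, H2-D1 and B2m lie between 0.311 and 0.586, Tap1, Psmb8 and Psmb9 are all open, and the class II genes lie between -0.026 and 0.362 where hypothalamus is in the pair and between 0.284 and 0.488 where it is not.

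Neighbours in the MHC were looked at in the same way. Of 66 other measured genes between H2-K1 and H2-D1, from 1 to 3 were called in a pair of regions, a share of 1.52% to 4.55%, beside the 5.53% to 8.75% of all probe sets. The difference was not tested. Of 11 microglia genes, from 2 to 8 were called for agreement. Macrophage genes of the borders were called in 0 of 6 in every pair, and meningeal and mural genes in 0 to 2 of 8. The non-classical class I genes H2-M3 and H2-T24 were called in all 6 pairs.

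Other genes of the pathway were set against B2m and Cd74, for which the shares of all probe sets called are given above. Of 9 genes of class I loading and processing, 2 were called with B2m in hippocampus (Nlrc5 at r = 0.545 and Tapbp at 0.488) and 0 in the other regions. With Cd74, 0 were called in cortex, 2 in hippocampus (Tapbp and Nlrc5), 2 in hypothalamus (Tapbp and Canx) and 1 in thalamus (Tapbp). Nlrc5 is the transactivator of class I genes, and Tapbp (tapasin) brings class I molecules to the TAP transporter. The r of Tapbp with Cd74 was 0.712 in hippocampus, 0.398 in hypothalamus and 0.396 in thalamus. Of 11 other class II genes, 2 were called with Cd74, both in hypothalamus: Ifi30, a thiol reductase of the endocytic path (0.471), and H2-DMa, a chain of the peptide exchanger H2-DM (0.350). Ciita, the master activator of class II genes, had r with Cd74 between -0.095 and 0.197 and was not called. Interferon genes were called with B2m in 2, 9, 3 and 2 of 21 cases in cortex, hippocampus, hypothalamus and thalamus, and with Cd74 in 0, 8, 5 and 0. Ifit1, an antiviral interferon-stimulated gene, was called with B2m in hippocampus, hypothalamus and thalamus.

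In level, all 10 genes were lower in cortex than in thalamus. The log2 value of H2-K1 was 8.87 to 9.78 in cortex with a median of 9.26, and 10.00 to 10.65 in thalamus with a median of 10.32. The ranges did not overlap. H2-D1 had 9.47 to 10.21 in cortex with a median of 9.81, and 10.26 to 10.95 in thalamus with a median of 10.61, again without overlap. For the other 8 genes the ranges overlapped. The share of all probe sets with ranges apart was not counted, so the gap cannot be read as particular to H2-K1 and H2-D1.

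The mean of H2-K1 was 9.29 ± 0.19 in cortex and 10.31 ± 0.14 in thalamus (SD, n = 98 and 108), a difference of -1.02 ± 0.02 (SE) in limma (adjusted p = 3.55e-108). H2-Ab1 had the largest difference of the 10, with 5.63 ± 0.44 in cortex and 6.88 ± 0.56 in thalamus (SD, n = 98 and 108) and -1.25 ± 0.07 (SE, adjusted p = 1.25e-43). H2-Aa followed with 6.50 ± 0.44 in cortex and 7.69 ± 0.43 in thalamus (SD, n = 96 and 106) and -1.19 ± 0.06 (SE, adjusted p = 1.33e-48). The remaining differences ran from -0.85 for Tap1 over -0.80 for H2-D1, -0.77 for H2-Eb1, -0.65 for Cd74, -0.64 for Psmb9 and -0.61 for B2m to -0.49 for Psmb8. In mice with both regions, cortex was lower in 91 of 91 for H2-K1, B2m and Tap1, in 90 of 90 for H2-D1 and Cd74, and in 87 of 91 for Psmb8, the lowest share of the 10 genes.

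That all 10 genes were lower in cortex says little by itself. Of all probe sets, 61.1% were called lower in cortex, and the median difference of all probe sets was -0.15. The share of all probe sets that were lower in every mouse was not counted. After quantile normalization of the arrays of both regions together, 44.1% were called lower in cortex, the median was -0.02, and the 10 members stayed lower by 0.33 (Psmb8) to 1.10 (H2-Ab1) on the log2 scale. A difference of at least 1 was found for 5.51% of all probe sets in either direction and for 3 of the 10 genes, H2-K1, H2-Aa and H2-Ab1, before that normalization. After it, 2 of the 10 reached 1, H2-Aa and H2-Ab1, and H2-K1 had -0.87. Of the 21 other probe sets of the members, 16 were called lower in cortex and 1, of H2-Aa, higher (0.06 ± 0.02, SE). B2m was lower by 0.61 with the probe set used and by 0.16 with its other one.

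Markers of several other cell types were lower in cortex too. All 4 oligodendrocyte genes were called lower, with a median difference of -1.03, and a mean log2 level of 10.24 to 11.60 in cortex and 12.03 to 13.19 in thalamus. Of 5 astrocyte genes 4 were called lower (median -0.70), and both blood genes (median -0.53). All 8 genes of meninges and mural cells were called lower, with a median difference of -0.67, and their mean log2 level was 7.96 to 8.81 in cortex and 8.67 to 9.59 in thalamus. Of 6 macrophage genes of the borders 5 were called lower (median -0.54), with a mean level of 4.83 to 5.63 in cortex and 5.13 to 6.08 in thalamus. All 7 endothelial genes were called lower (median -0.43), with 7.19 to 7.65 in cortex and 7.63 to 8.44 in thalamus. Microglia genes went the other way, with 7 of 11 called higher and 2 lower in cortex (median 0.22), at 8.10 to 8.64 in cortex and 7.87 to 8.38 in thalamus. Their part in the difference of the members was not tested. Tapbp fell by 0.68 and Tap2, the partner of Tap1, by 0.51 in cortex relative to thalamus, whereas H2-DMa was higher in cortex by 0.74.

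**Figure D5:**
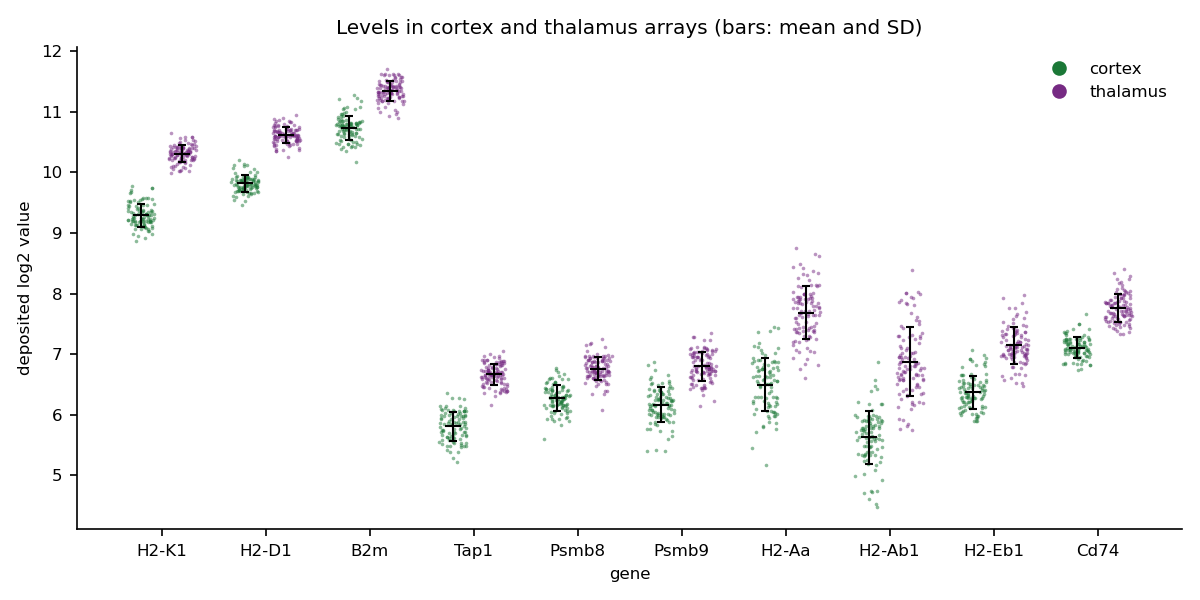
Deposited log2 values of the 10 genes in single arrays of cortex (green) and thalamus (purple), with mean and SD as black bars. All 10 means are lower in cortex, and among these genes the ranges are apart for H2-K1 and H2-D1 only. The share of all probe sets with ranges apart was not counted.

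Finally, each member was set against 283 traits of sleep and behaviour of the same mice in each region, with p-values adjusted over all probe sets and traits of a region. None of 11320 tests of the members was called by this correlation test, with a lowest adjusted p of 0.487. Of all 12745471 tests in a region, 0% were called in cortex, hypothalamus and thalamus and 7.85e-06% (1 test) in hippocampus. At an unadjusted p under 0.05 stood 7.17% of the members' tests, against 5.82% to 6.25% of all tests. By region these were 156 (cortex), 232 (hippocampus), 223 (hypothalamus) and 201 (thalamus) of 2830 tests each. B2m in thalamus alone had 63 of its 283. The members are correlated with each other, and the difference from all tests was not tested. The strongest by p was B2m in thalamus with the change in NREM sleep sigma power in the first hours of recovery after sleep deprivation (r = 0.384, rho = 0.399, n = 102, permutation p = 0.0001 and 6e-05), which did not pass the adjustment.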

How the data were processed

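The deposited values are log2 expression of 45037 probe sets on 383 arrays. The submitters' processing notes name affy and RMA; neither a version nor a build is given in the sources used here. Missing values (0.197% to 0.224% in a region) were left out. The deposited trait table holds 283 traits, each on its own scale and, per the labels, of other units than expression. Arrays were grouped by the labelled tissue and joined across regions and traits by mouse.

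Probe sets of 1 gene (34945) were named by the platform annotation, and gene IDs were matched to RefSeq's table (34741 matched, all 10 members among them). Per probe set, Pearson correlations across mice were computed in Python 3.11.15 with p-values from the t distribution, adjusted by Benjamini-Hochberg over all probe sets at 0.05; single members also had 100000 permutations. The difference of cortex and thalamus was fitted without a block by lmFit and eBayes (with trend) of limma 3.58.1, under R 4.3.3. Both procedures were tested on simulated data. Precision is limited by the number of arrays. Each array is a different mouse within a region. Mice with the same number in 2 regions are the same animal per the labels, so that mouse numbers pair the arrays; the blocked fit is an alternative.

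The members and the gene lists were chosen with earlier results of these data known. Named besides them are the 8 genes most like B2m and like Cd74 and members of these lists. Also named are Tbr1 and Tcf7l2 as markers of region, Gatm, and genes nearest to Cd74 in hypothalamus and in cortex. List genes with no probe set of their own, 17 in all, were not analysed here. Since date and cohort explained less of the variance than chance would give for the median probe set in each region, p-values can be somewhat too small if those effects were taken out before deposit, which the sources used here do not state.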

Additional observations from a re-analysis of the deposited data

Results flagged for a closer look

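The correlation of B2m with Cd74 across mice differed between regions by a test of the difference itself. Cortex minus hippocampus gave a difference of Fisher's z of -0.56, with r of 0.193 in cortex and 0.637 in hippocampus of the same 68 mice (permutation p = 0.00074, adjusted over 6 pairs of regions 0.00444). Cortex minus hypothalamus gave -0.49, with r of 0.0802 in cortex and 0.513 in hypothalamus of the same 80 mice (permutation p = 0.00157, adjusted 0.00471). With the other B2m probe set, the differences were -0.51 (adjusted p = 0.0223) and -0.38 (adjusted p = 0.0811). The test covers this pair of genes only. The SD of Cd74 (deposited log2) was 0.17 in cortex, 0.77 in hippocampus and 0.64 in hypothalamus, and its part was not tested. The class scores given below correlated at 0.377 in cortex, 0.741 in hippocampus and 0.429 in hypothalamus, and their difference between regions was not tested.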

How the results depend on the processing

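Of 60 tests of agreement between regions, 25 were called, and 13 within the hybridization date with most arrays, where fewer mice remained; RIN taken out, 5 principal components taken out, ranks and the other B2m probe set gave 26, 28, 19 and 21. Of 16 class II tests with B2m, 9 were called, against 4 within the main date, 0 after 5 principal components, 4 with the meningeal and mural score taken out (added after the data were seen) and 4 with the other B2m probe set. Of 24 class I tests with Cd74, 9 were called, against 1 after 5 principal components and 4 with that score taken out. The correlation of B2m and Cd74 in hippocampus was 0.261 after 5 principal components and no longer called. In hypothalamus it was 0.428 within the main date, 0.412 after 5 principal components, 0.328 with the meningeal and mural score taken out and 0.382 with the other B2m probe set, each no longer called among the probe sets set against B2m. Among those set against Cd74 it was still called within the main date (adjusted p = 0.0108) and with the other B2m probe set (adjusted p = 0.0109). The causes were not tested. The class II tests with Cd74 were called 12 of 12 under every alternative, and the class I tests with B2m between 10 and 15 of 20. In cortex minus thalamus 10 of 10 were called in every fit, with mouse as a replicate block too (10 called). A difference of at least 1 was reached by 3, and by 2 after quantile normalization of both regions together. Class II agreement without hypothalamus had 10 of 12 called, against 2 within the main date and 5 by ranks. Of the values of single genes, none that was called turned its direction. No alternative called a member with a trait.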

Other observations

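The 2 class scores, each the mean of the standardised members of a mouse, are a description of the same values. Between regions the class I score correlated at 0.378 (cortex and hypothalamus) to 0.529 (cortex and thalamus), and the class II score at 0.0938 (hypothalamus and thalamus) to 0.479 (cortex and thalamus). Within a region the class I and class II scores correlated at 0.377 (cortex), 0.741 (hippocampus), 0.429 (hypothalamus) and 0.366 (thalamus). Nearest to Cd74 in hypothalamus, members aside, were Serping1 (r = 0.835), Gjb2 (0.819), Islr (0.817) and Igf2 (0.805). Fn1 (0.801), Gstm2 (0.797), Crabp2 (0.797) and Foxc2 (0.796) came next. Of these, Foxc2 is known as a transcription factor of meningeal development, and Fn1 encodes the matrix protein fibronectin. In cortex the genes nearest to Cd74 were Cp (0.447), Nagk (0.435) and Serping1 (0.404).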
